A study of Mus musculus with 15 samples.

Results

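The miR-17 and miR-106b clusters, each called here by its first miRNA, were examined through their 9 guide arms, which were chosen by name among the 696 mouse miRNAs on the array. The guide arm is the strand of a miRNA hairpin that is mostly kept, and the passenger arm is its partner. The miR-17 cluster gave 6 guide arms (mmu-miR-17-5p, mmu-miR-18a-5p, mmu-miR-19a-3p, mmu-miR-20a-5p, mmu-miR-19b-3p and mmu-miR-92a-3p) and the miR-106b cluster gave 3 (mmu-miR-106b-5p, mmu-miR-93-5p and mmu-miR-25-3p). The mouse prefix mmu is left out from here on. They were measured in livers of male mice, of a strain that the labels write as B6C57/J, 5 on each of 3 diets, with 1 array per mouse. From 1 year of age, all mice ate AIN-93G food, either ad libitum (standard diet, SD), with 40% caloric restriction (CR), or ad libitum with 0.1% w/w metformin added (Met). The labels do not give the age at which the livers were taken, nor the litter or cage of each mouse.

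Both clusters are polycistrons, meaning that several miRNA hairpins are cut from 1 long primary transcript by DROSHA, after which DICER1 releases the mature strands. A miRNA finds its targets mainly through its seed, bases 2 to 8 counted from the 5′ end, so members with the same seed share many targets wherever they are encoded. The miR-17 cluster is known for promoting proliferation and for its activation by MYC, and the miR-106b cluster, which lies within the replication gene Mcm7, is its relative. The adult liver divides little, and most of its RNA comes from hepatocytes.

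The mature sequences show which members share a seed and how little some of them differ outside it. They are given 5′ to 3′ as in RefSeq for mouse build GRCm38.p6, with the seed in capitals, and the members with the seed AAAGUGC come first.
miR-17-5p: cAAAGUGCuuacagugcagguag
miR-20a-5p: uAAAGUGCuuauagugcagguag
miR-106b-5p: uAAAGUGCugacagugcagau
miR-93-5p: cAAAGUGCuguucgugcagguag
miR-18a-5p: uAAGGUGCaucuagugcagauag
miR-19a-3p: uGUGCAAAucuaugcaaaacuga
miR-19b-3p: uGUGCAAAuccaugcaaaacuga
miR-92a-3p: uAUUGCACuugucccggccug
miR-25-3p: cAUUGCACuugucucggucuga

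The 4 members with the seed AAAGUGC and the pair with AUUGCAC (miR-92a-3p and miR-25-3p) each came from both clusters, while GUGCAAA (miR-19a-3p and miR-19b-3p) and AAGGUGC (miR-18a-5p) came from the miR-17 cluster alone. miR-19a-3p and miR-19b-3p differed at 1 of 23 positions, and miR-17-5p and miR-20a-5p at 2 of 23, so probes for these neighbours may share signal, which was not tested. The guide arms of the miR-17 cluster spanned 813 bases of the forward strand (chr14:115043684-115044496, GRCm38.p6). Those of the miR-106b cluster spanned 476 bases of the reverse strand (chr5:138165332-138165807), and the 3 hairpins lay inside Mcm7. The mature miR-19b-3p and miR-92a-3p are each also encoded at a second locus on the X chromosome, and the array cannot tell the copies apart.

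Each guide arm was read by 20 spots of 2 probes on every array. Spot signals were turned into z-scores, the natural log of the signal minus the mean over all spots of that array and divided by their standard deviation (SD of the array). The scanner software also gave a total gene signal, a sum over spots after background subtraction, and called each miRNA detected or not. On that call, miR-20a-5p, miR-92a-3p, miR-93-5p and miR-25-3p were detected on all 15 arrays. miR-19b-3p and miR-106b-5p were detected on 14 arrays each and missed in the same animal, CR mouse 3. miR-17-5p, which gives the cluster its name, was dim, with detection in 5 SD, 4 Met and 2 CR mice. miR-19a-3p was detected in 4 SD and 2 Met mice and in no CR mouse, and miR-18a-5p on no array. Testing was limited to miRNAs that some diet group showed on every one of its arrays, and these were 178 in all, with 7 of the 9 guide arms. miR-17-5p passed only through SD, and its other values lay close to background.

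**Figure D1:**
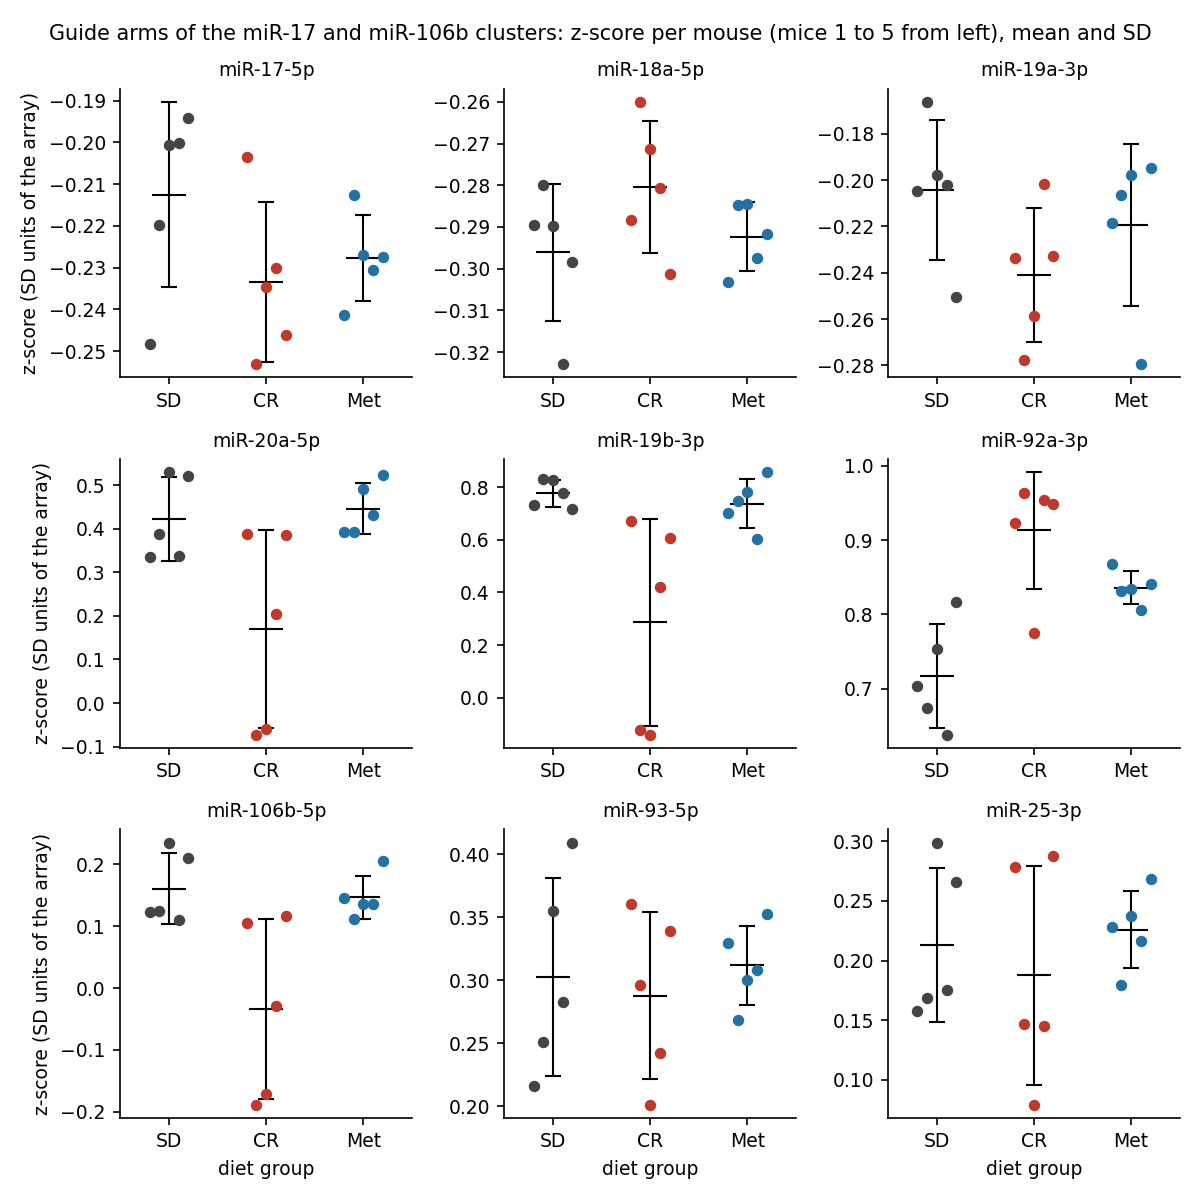
z-score of each of the 9 guide arms in each mouse (points, mice 1 to 5 from left to right) by diet group, with the mean as a wide tick and the SD as whiskers (n = 5). The vertical axes differ between panels. The low pair of CR points for miR-20a-5p, miR-19b-3p and miR-106b-5p are CR mice 2 and 3, while miR-92a-3p had 4 of its CR points above all SD and Met points.

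Of the 15 arrays, those of CR mice 2 and 3 stood apart before any diet was compared. They had the fewest detected miRNAs, 167 and 151, against 170 to 205 on the other arrays. Over the 139 miRNAs detected everywhere, the median total gene signal relative to the SD mean was -0.40 in CR mouse 2 and -0.78 in CR mouse 3 on the log2 scale. It was -0.31 in CR mouse 4, 0.10 in CR mouse 1 and 0.08 in CR mouse 5. All SD arrays lay on 1 slide and all CR arrays on another, with Met mice 1 to 3 on the first and Met mice 4 and 5 on the second. Slide and diet therefore cannot be fully told apart between CR and SD, except through the Met arrays.

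To ask whether caloric restriction moved the 2 clusters as units, CR was set against SD. The members of the miR-17 cluster did not share 1 direction. The comparison is described first for the members that were lower, then for miR-92a-3p, then for the members with little difference. Calls, here termed meeting the criteria, needed a limma p of at most 0.05, an adjusted p (Benjamini-Hochberg, over 178 miRNAs) of at most 0.3 and a Z ratio of at least 1.5 in size. The Z ratio scales a difference between group mean z-scores by how widely such differences spread over the 696 miRNAs, as their standard deviation. By this rule 2 of the 7 tested guide arms were called, miR-19b-3p and miR-20a-5p, both lower in CR, against 17.4% of all tested miRNAs called in either direction. At an adjusted p of 0.05 or less alone, 4 of the 7 were called, against 30.9% of all. The median difference over the 7 was -0.026 in z-score, close to -0.016 over all tested miRNAs.

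miR-19b-3p, which carries the GUGCAAA seed, had the lowest Z ratio of the 7. Its total gene signal was 186.6, 198.5, 227.4, 194.3 and 182.9 in SD mice 1 to 5. In CR mice 1 to 5 it was 171.3, 11.5, not detected, 102.6 and 160.5. Every CR mouse was below every SD mouse, and CR mouse 2 held 5.79% of the SD mean while CR mouse 1 held 86.5%. On the z-score scale, where the background is not subtracted, the mean was 0.287 ± 0.393 in CR and 0.776 ± 0.052 in SD (SD, n = 5). The difference was -0.489 ± 0.137 (SE), a Z ratio of -2.94 (limma adjusted p = 0.0191). The groups did not overlap, which held for 7.87% of all tested miRNAs in this direction and for no other of the 7 guide arms. In bulk liver, fewer cells of a type and less RNA per cell cannot be told apart for this or any other member.

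miR-20a-5p, encoded just upstream of miR-19b-3p and carrying the AAAGUGC seed, had total gene signals of 96.3, 99.4, 144.6, 97.7 and 135.9 in SD mice 1 to 5. In CR mice 1 to 5 they were 106.3, 23.0, 22.9, 64.1 and 109.3. CR mice 1 and 5 lay within the SD range, while CR mice 2 and 3 were at 20.1% and 19.9% of the SD mean and CR mouse 4 at 55.8%. The z-score was 0.169 ± 0.227 in CR and 0.422 ± 0.096 in SD. The Z ratio was -1.52 (limma adjusted p = 0.0432). This call sat just past the limit. It was lost without SD mouse 3 (Z ratio -1.38), SD mouse 5 (-1.29), CR mouse 2 (-1.32), CR mouse 3 (-1.37) or CR mouse 4 (-1.49).

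miR-106b-5p, the member of the miR-106b cluster that shares this seed, had total gene signals between 55.9 and 83.9 in SD. In CR mice 1 to 5 they were 55.4, 7.21, not detected, 31.4 and 60.9. Its order of CR mice was close to that of miR-19b-3p, with mice 2 and 3 lowest and mouse 4 between them and mice 1 and 5. The difference in z-score was -0.194 ± 0.056 (SE), which passed the adjusted p alone (0.0197 by limma) but had a Z ratio of -1.17.

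miR-92a-3p, the last hairpin of the miR-17 cluster and a member of the AUUGCAC family, differed from SD in the opposite direction. Its total gene signal was 183.5, 164.5, 209.9, 165.2 and 216.3 in SD mice 1 to 5 and 248.6, 218.6, 154.6, 232.7 and 266.9 in CR mice 1 to 5. Except for CR mouse 3, each CR mouse was above every SD mouse, including CR mouse 2, where miR-19b-3p was at 5.79% of its SD mean. The z-score was 0.913 ± 0.078 in CR and 0.717 ± 0.070 in SD. The difference of 0.195 ± 0.057 (SE) passed the adjusted p alone (0.0210 by limma), with a Z ratio of 1.17. Without CR mouse 3 the Z ratio was 1.61 and the criteria were met, as they were with quantile normalization (Z ratio 2.89). Scaling to all probes ended the call by adjusted p (Z ratio 0.54, limma adjusted p = 0.396).

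The other 2 members of the miR-106b cluster showed little difference in z-score. miR-93-5p, which has the AAAGUGC seed, had total gene signals of 103.4, 74.8, 52.9, 74.2 and 103.6 in CR mice 1 to 5, against 77.7 to 116.7 in SD. Its difference in z-score was -0.015 with a 95% interval of -0.114 to 0.084 (limma adjusted p = 0.832). miR-25-3p, which has the seed of miR-92a-3p, had total gene signals of 88.3, 52.3, 37.6, 58.4 and 92.8 in CR and 64.6 to 96.4 in SD, with a difference in z-score of -0.026 and an interval of -0.124 to 0.073 (limma adjusted p = 0.697). For both, CR mouse 3 was the lowest of the 15 arrays in total gene signal, at 55.9% and 49.3% of the SD mean, a smaller drop than that of miR-20a-5p in the same mouse. The interval of miR-17-5p was -0.046 to 0.004 (limma adjusted p = 0.183), but it was detected in 2 CR mice and its z-score cannot fall much below background.

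**Figure D2:**
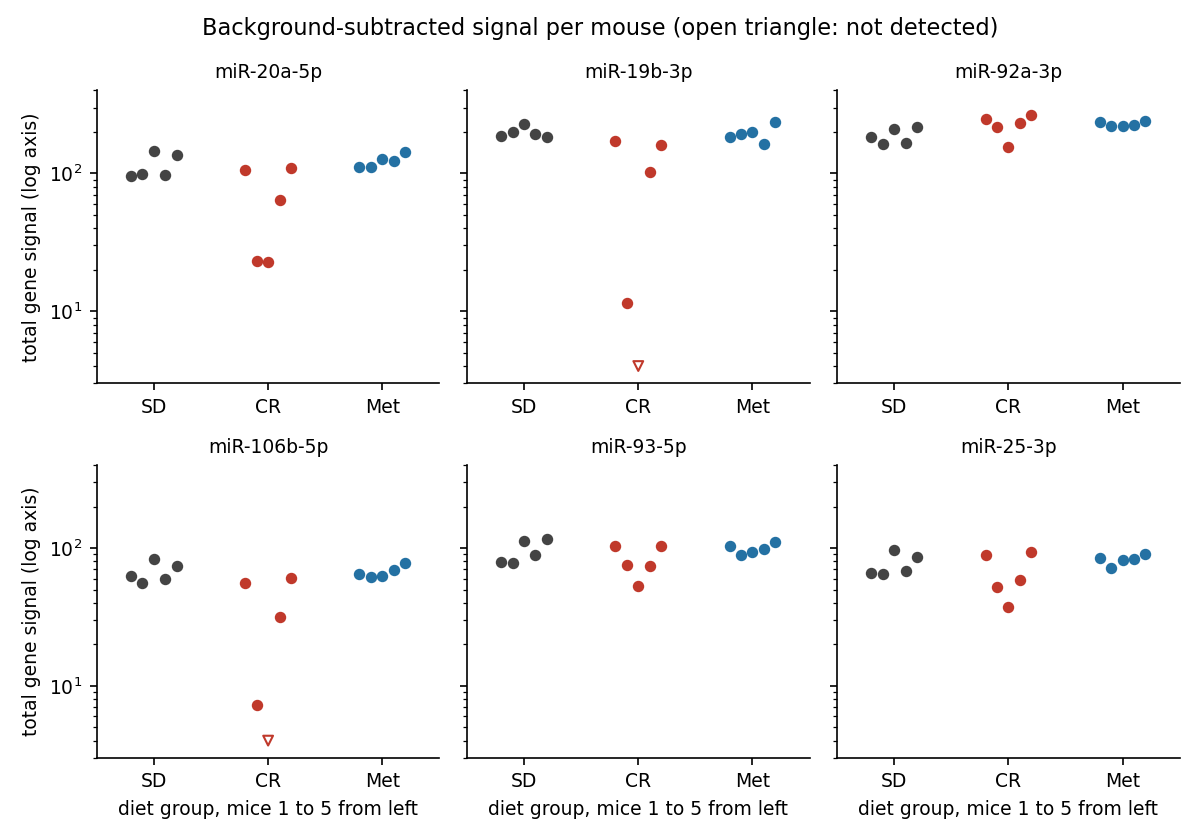
Total gene signal (background-subtracted sum over spots, log axis) of the 6 brighter guide arms in each mouse, with mice 1 to 5 from left to right in each diet group. Open triangles mark a miRNA that was not detected and are drawn at an arbitrary low position. CR mice 2 and 3 were far below the rest for miR-20a-5p, miR-19b-3p and miR-106b-5p. For miR-93-5p, miR-25-3p and miR-92a-3p, CR mouse 3 was the lowest point, by a smaller distance. For miR-92a-3p, CR mouse 2 lay above every SD mouse.

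CR was next compared with Met, which shares the CR arrays with the comparison above, so the values stand side by side and do not support each other. Again 2 of the 7 guide arms met the criteria, miR-19b-3p and miR-20a-5p, against 20.8% of all tested miRNAs in either direction. At an adjusted p of 0.05 or less alone, 3 of the 7 were called, against 34.3% of all. The total gene signal of miR-19b-3p was 185.2, 194.0, 199.5, 164.1 and 235.2 in Met mice 1 to 5, so that Met mouse 4 lay within the range of CR. Its Z ratio was -2.90 (limma adjusted p = 0.0262). miR-20a-5p, at 111.5, 110.8, 127.5, 122.7 and 142.3 in Met mice 1 to 5, was lower in every CR mouse than in any Met mouse, and its Z ratio was -1.78 (limma adjusted p = 0.0274). Such separation in this direction was found for 8.99% of all tested miRNAs. miR-106b-5p passed the adjusted p alone (0.0262 by limma, Z ratio -1.16), with Met signals between 61.2 and 77.6. miR-92a-3p did not pass between CR and Met (difference 0.077 in z-score, 95% interval -0.044 to 0.197, limma adjusted p = 0.278), nor did miR-93-5p, miR-25-3p or miR-17-5p (limma adjusted p of 0.690, 0.502 and 0.703). The result for miR-92a-3p depended on the scaling, since it met the criteria with quantile normalization (Z ratio 2.24, limma adjusted p = 0.0251).

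The study asked how metformin alters miRNAs in liver, and here 0 of the 7 guide arms met the criteria between Met and SD, where 1.12% of all tested miRNAs did. The paper reports miR-20a and miR-106b as raised by metformin in liver and miR-92a-3p as differentially expressed. It profiled miRNAs on the arrays read here, and reports many as raised by metformin from these arrays together with quantitative PCR. The array part rests on the same data as the calls made here. Its separate figure of mature miRNA levels was made by quantitative PCR, an assay that these arrays do not repeat. No guide arm had an unadjusted p of 0.05 or less by limma, against 12 of all 178. miR-92a-3p came nearest. Its total gene signal was 236.5, 221.7, 219.6, 225.6 and 238.4 in Met mice 1 to 5, each above the highest SD mouse, at 216.3. On the z-score scale the groups overlapped, since Met mouse 4 (0.806) was below SD mouse 5 (0.816). The difference was 0.119 with a 95% interval of -0.002 to 0.239 and a Z ratio of 1.95 (limma adjusted p = 0.673). The pairwise test that the methods name, which does not share variances over miRNAs, did call this member, among 13 of the 178 miRNAs. The other 6 had limma adjusted p of 0.930, and their differences in z-score lay between -0.039 for miR-19b-3p and 0.024 for miR-20a-5p. The 95% interval ran from -0.330 to 0.252 for miR-19b-3p, from -0.163 to 0.211 for miR-20a-5p and from -0.132 to 0.104 for miR-106b-5p. For these members the shared spread included the widely spread CR mice, so only larger differences could be seen.

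These differences depend on how arrays are put on 1 scale, and the members were therefore also read against the middle of all miRNAs. When arrays were set to a common 75th percentile over detected probes, the median over the 178 miRNAs was itself 0.37 higher in CR than in SD on the log2 scale. Relative to that median, miR-19b-3p was -0.49, miR-20a-5p -0.24 and miR-106b-5p -0.16, while miR-93-5p and miR-25-3p were within 0.01 of it and miR-92a-3p was 0.19 above it. With the background-subtracted total gene signal, scaled in the same way, the median over 139 miRNAs was 0.31 higher in CR. miR-20a-5p was then -0.86 relative to the median, miR-93-5p 0.02, miR-25-3p -0.02 and miR-92a-3p 0.49. Quantile normalization put miR-92a-3p 0.40 above its median and miR-19b-3p -0.50 relative to it. Before this subtraction, miR-20a-5p, miR-106b-5p, miR-17-5p, miR-93-5p and miR-25-3p turned to higher in CR than SD under the first of these scalings, and miR-19b-3p no longer met the criteria (Z ratio -0.61, limma adjusted p = 0.164). Under all 3, miR-92a-3p was the highest of the members relative to the median, and miR-19b-3p was the lowest under both that included it.

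A difference between 2 members on the same array does not depend on that scale. It was taken for the 4 pairs of guide arms that share a cluster or a seed and were detected on all 15 arrays, as the difference of their log2 total gene signals. Only its change between diets is read, since levels of different probes cannot be compared. In all, 12 two-sided exact permutation tests were run (4 pairs in 3 comparisons), for which the smallest p that 5 against 5 arrays can give is 0.00794. Within the miR-17 cluster, miR-20a-5p minus miR-92a-3p was -0.72 ± 0.14 in SD, -2.08 ± 0.90 in CR and -0.90 ± 0.14 in Met (SD, n = 5). In CR mice 1 to 5 it was -1.23, -3.25, -2.76, -1.86 and -1.29, with every CR mouse below all SD and Met mice. The signal of miR-20a-5p relative to that of miR-92a-3p was thus 0.392 of its SD value in CR (exact permutation p = 0.00794, adjusted over the 12 tests 0.0190) and 0.442 of its Met value (exact permutation p = 0.00794, adjusted 0.0190). With the median signal, from which no background is subtracted, the changes were smaller, at -0.42 against SD and -0.33 against Met on the log2 scale (both exact permutation p = 0.00794).

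Members with the same seed also changed to unequal extents. miR-20a-5p minus miR-93-5p was 0.28 ± 0.10 in SD, -0.60 ± 0.81 in CR and 0.31 ± 0.13 in Met. The change was -0.88 from SD to CR and -0.91 from Met to CR on the log2 scale (both exact permutation p = 0.00794, adjusted 0.0190). Without background subtraction these changes were -0.24 and -0.26 (both exact permutation p = 0.00794). miR-92a-3p minus miR-25-3p was 1.31 ± 0.13 in SD, 1.82 ± 0.29 in CR and 1.48 ± 0.09 in Met. CR exceeded SD by 0.51 (exact permutation p = 0.00794, adjusted 0.0190), or by 0.18 without background subtraction, while the excess over Met of 0.35 missed the limit (exact permutation p = 0.0556). Without background subtraction that excess over Met was 0.08 and passed it (exact permutation p = 0.0397). Met exceeded SD by 0.17, with overlapping groups (exact permutation p = 0.0317, adjusted 0.0635), and by 0.20 on slide 1 alone (exact permutation p = 0.0714).

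The pair within the miR-106b cluster passed the limit in no comparison. miR-93-5p minus miR-25-3p was 0.31 ± 0.10 in SD, 0.35 ± 0.16 in CR and 0.27 ± 0.04 in Met, and the differences lay between -0.04 and 0.08 (exact permutation p of 0.302 to 0.659). A p above the limit does not show that the pair moved together. The third guide arm of this cluster, miR-106b-5p, which was lower in CR, entered no pair because it was not detected in CR mouse 3. The pair therefore does not stand for the whole cluster.

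**Figure D3:**
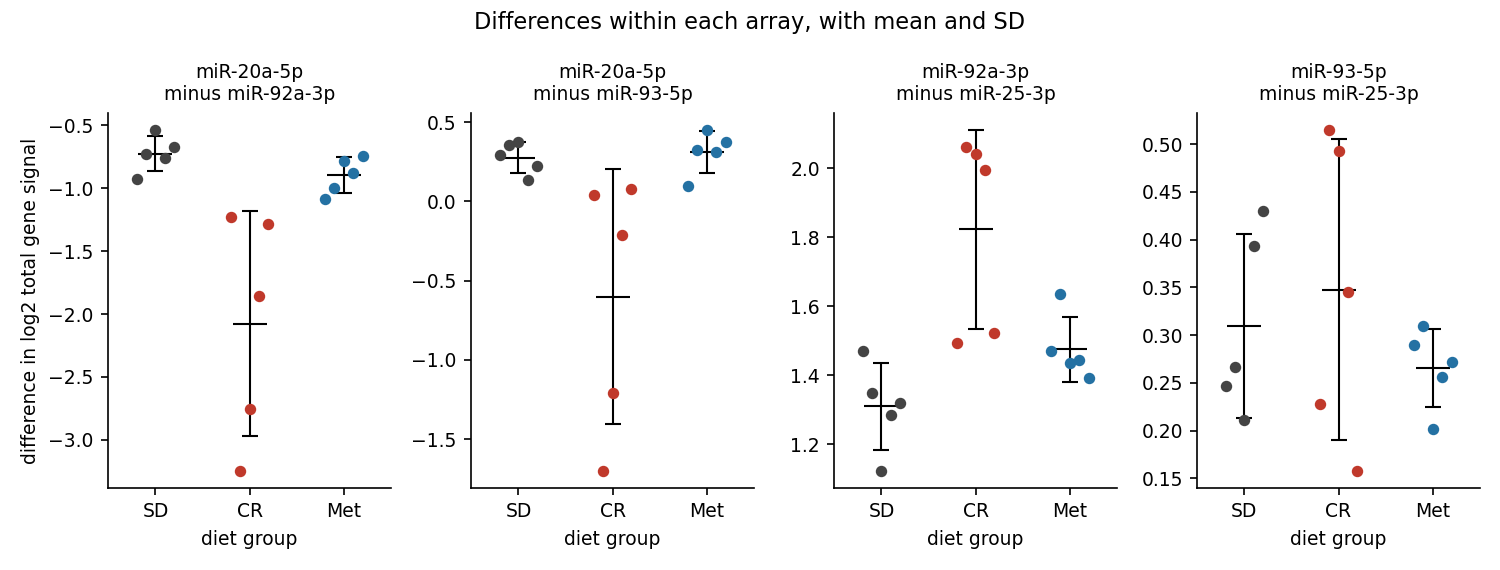
Difference in log2 total gene signal between 2 guide arms on the same array, for the 4 pairs that share a cluster or a seed, in each mouse (points) with mean and SD (n = 5). The vertical axes differ. For the 3 pairs on the left every CR point lies beyond all SD points, and for miR-93-5p minus miR-25-3p the groups overlap.

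Without CR mice 2 and 3, whose removal was chosen after their values were seen, the 3 pairs that passed between CR and SD kept their direction, while miR-93-5p minus miR-25-3p turned from 0.04 to -0.07. The change was then -0.73 for miR-20a-5p minus miR-92a-3p, -0.31 for miR-20a-5p minus miR-93-5p and 0.36 for miR-92a-3p minus miR-25-3p, each at an exact permutation p of 0.0357, the smallest that 3 against 5 arrays can give. Among the single members, miR-19b-3p still met the criteria (Z ratio -1.82, limma adjusted p = 0.0847) and miR-92a-3p now met them (Z ratio 1.95, limma adjusted p = 0.0316). miR-20a-5p did not (Z ratio -0.83, limma adjusted p = 0.354), and miR-106b-5p had a Z ratio of -0.84 (limma adjusted p = 0.161). With the slide as a block, no guide arm met the criteria between CR and SD. miR-19b-3p then had a Z ratio of -2.66 and miR-20a-5p one of -1.70, both at a limma adjusted p of 0.257, and miR-92a-3p one of 1.21. On slide 2 alone, CR set against Met mice 4 and 5 gave -1.26 for miR-20a-5p minus miR-92a-3p and -0.94 for miR-20a-5p minus miR-93-5p. Each had an exact permutation p of 0.0952, the smallest that 5 against 2 arrays can give, so neither could have passed the limit. With no guide arm called on that slide, miR-19b-3p had a Z ratio of -2.64 and miR-20a-5p one of -1.84.

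Base composition, which the choice of members did not use, ran broadly with the differences between CR and SD. miR-19b-3p and miR-20a-5p had 39.1% G and C, miR-106b-5p 42.9%, miR-17-5p 47.8%, miR-25-3p 50%, miR-93-5p 52.2% and miR-92a-3p 57.1%. The members with the fewest G and C were those lower in CR, and miR-92a-3p, with the most, was the one higher. Between Met and SD the same members showed no such spread, apart from miR-92a-3p. This is an order over 7 guide arms that share arrays and in part sequence, and whether it extends to all miRNAs was not tested, because only 75.3% of the 178 tested names matched a sequence, too few for such a check.

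**Figure D4:**
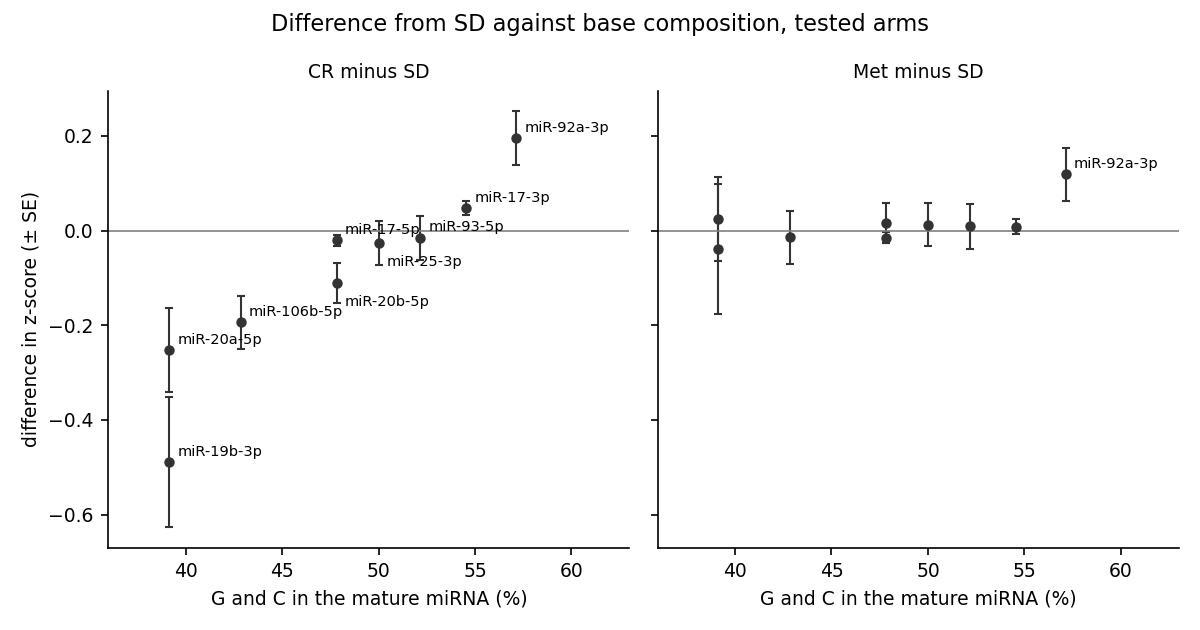
Difference in mean z-score (points, with SE from limma) against the percentage of G and C in the mature miRNA, for the 7 tested guide arms with miR-17-3p and miR-20b-5p, for CR minus SD and Met minus SD. Differences between CR and SD run from -0.489 at 39.1% G and C (miR-19b-3p) to 0.195 at 57.1% (miR-92a-3p), and those between Met and SD lie closer to 0.

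Of the 6 passenger arms on the array, miR-17-3p alone was detected, and on all 15 arrays, unlike its guide arm miR-17-5p. Its total gene signal was 13.1 to 16.9 in SD, 14.0 to 19.6 in CR and 15.0 to 18.1 in Met. The z-score was higher in CR than in SD by 0.048 ± 0.016 (SE, limma adjusted p = 0.0353, Z ratio 0.29), short of the criteria. miR-17-3p thus lay on the side of miR-92a-3p, although it comes from the same hairpin as miR-17-5p, whose difference was -0.021. However, the passenger arms that were not detected also all had higher mean z-scores in CR than in SD. The means were -0.290 against -0.332 where this was largest and -0.333 against -0.354 where it was smallest. Whether the difference of miR-17-3p, itself dim, goes beyond such a shift was not tested. The 2 arms are read by different probes, and miR-17-5p was near background in most CR mice.

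Among 7 related miRNAs outside the clusters, namely the paralogous miR-106a-363 cluster and other carriers of the miR-92 seed, 6 were on the array and miR-20b-5p alone was detected. It carries the AAAGUGC seed and differs from miR-20a-5p at 2 of 23 positions. Its total gene signal was 45.9 in CR mouse 1, 27.3 in CR mouse 4 and 47.4 in CR mouse 5, and it was not detected in CR mice 2 and 3. The range was 38.9 to 61.2 in SD and 47.8 to 59.0 in Met. It thus followed miR-20a-5p mouse by mouse, and its Z ratio was -0.67 in CR against SD and -0.82 in CR against Met (limma adjusted p of 0.0541 and 0.0316). Whether the probes of the 2 miRNAs share signal was not tested.

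Over the 15 arrays, the z-scores most like those of miR-92a-3p belonged to let-7b-5p (Pearson r = 0.873), miR-125b-5p (0.807) and miR-139-5p (0.788), none of them a member of either cluster. Those most like miR-17-5p were miR-203-3p (0.652), miR-22-5p (0.626) and miR-193a-3p (0.596). These values describe 15 arrays that share the low CR mice, and carry no test.

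Markers of cell types were read on the same arrays. The 4 hepatocyte miRNAs were detected on all arrays, so the labelled tissue's defining markers were present, and their summed total gene signal was 19340 to 30433 in SD, 10572 to 28177 in CR and 25228 to 30603 in Met. Among them miR-148a-3p, miR-192-5p and miR-194-5p met the criteria as lower in CR than in SD (limma adjusted p of 0.0196, 0.0257 and 0.0440). miR-122-5p, the miRNA known as typical of hepatocytes, had a z-score difference of 0.217 (limma adjusted p = 0.155). miR-192-5p was also low in CR mice 2 and 3, at 286.8 and 297.4 against 958.6 to 1647 in the other CR mice. The 7 leukocyte miRNAs summed to 130.9 to 246.2 in SD, 28.5 to 212.9 in CR and 136.5 to 347.1 in Met, and 1 of them, miR-146b-5p, was detected on no array. The 2 erythrocyte miRNAs on the array summed to 264.7 to 726.4, 33.9 to 788.0 and 290.7 to 621.1, and the 7 of endothelial and stellate cells to 791.3 to 1115, 276.3 to 1176 and 853.6 to 1127, in the same order of groups. The lowest sums in CR lay below SD and Met for all 4 lists, but not every marker followed its sum. Between CR and SD, miR-145a-5p, miR-214-3p and miR-155-5p were higher by 0.128, 0.043 and 0.035 in z-score (limma adjusted p of 0.0541, 0.0503 and 0.156). The other tested leukocyte, erythrocyte, endothelial and stellate markers were lower in CR. The part of these cell types in the lower miR-19b-3p, miR-20a-5p and miR-106b-5p was not tested.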

How the data were processed

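Total RNA from 15 livers was labeled with Cy3 and hybridized to 1-color Agilent mouse miRNA arrays, read with Feature Extraction 11.5.1.1. The authors deposited each array's spot intensity and total gene signal as linear values that had not been normalized across arrays. They also deposited a score for each spot, which matched, to within 0.0005, a z-score of log-transformed (natural log) median signals computed on that array's spots with no background subtraction.

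The same z-scores were computed here, leaving out outlier spots and averaging spots, then probes. Groups came from the sample labels. They were compared in 1 fit over 15 arrays with limma 3.58.1 (trended variance) in R 4.3.3, with p-values adjusted by Benjamini-Hochberg over 178 miRNAs. The limits follow the study's methods, whose pairwise z-test was an alternative. Where nothing says how mice were housed, p-values measure the spread between these mice, and 5 arrays per group limit the precision. A total gene signal of 0.1, the software's lowest value, was read as not detected. No spot was saturated. For pairs of members, log2 total gene signals were subtracted within an array and tested by two-sided exact permutation over 252 ways to part 10 arrays.

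The text names the 9 guide arms, their passenger arms and related miRNAs where detected, and the 3 miRNAs most correlated with miR-17-5p and with miR-92a-3p. The members and lists were chosen with earlier results of these data known. Sequences and positions are from RefSeq (GRCm38.p6), matched by name for all 9. The array's own annotation names another build, mm9, and none of its coordinates are used. The fit was tested on simulated data in which each miRNA had the same spread in every group. That test does not cover the wider spread of some members in CR. The closing section gives the alternatives. Other steps used scipy 1.17.1, pandas 2.3.3, numpy 2.4.6 and matplotlib 3.10.9 under Python 3.11.15.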

Additional observations from a re-analysis of the deposited data

Results flagged for a closer look

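Of 39 groups of 5 values examined, 1 held a value far from the rest. The z-score of miR-92a-3p was 0.776 in CR mouse 3, while the other 4 CR mice lay between 0.923 and 0.963. Chance flags about 1 group in 20. CR mouse 3 also had the fewest detected miRNAs of the 15 arrays, 151. Without it, miR-92a-3p met the criteria between CR and SD, with a Z ratio of 1.61.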

How the results depend on the processing

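Of 754 values of single members and pairs under other settings, 662 kept their direction and their side of the criteria, and 46 changed direction. The adjusted p alone, the changed detection filters, the pairwise z-test and the replicate block leave each Z ratio as it was. These settings can alter a call but not a direction, so part of that agreement was fixed in advance. Setting arrays to the 75th percentile of their detected probes turned the most. Between CR and SD, the Z ratio became 2.05 for miR-17-5p, 0.68 for miR-20a-5p, 1.05 for miR-106b-5p, 1.89 for miR-93-5p, 1.87 for miR-25-3p and 1.51 for miR-20b-5p. Between CR and Met it became 2.01, 0.30, 0.93, 1.75, 1.70 and 1.25 for these in the same order, and between Met and SD 0.78 for miR-17-5p, 0.12 for miR-19b-3p and 0.67 for miR-106b-5p. That scaling called 4 guide arms against SD and 4 against Met, and 120 and 116 of 178 miRNAs against 31 and 37 with z-scores. The 4 were miR-17-5p, miR-92a-3p, miR-93-5p and miR-25-3p in both, with miR-92a-3p at 2.79 and 2.16, and miR-19b-3p lost its call, at -0.61 against SD and -0.74 against Met. With scaling to all probes, the Z ratio of miR-92a-3p between CR and Met was -0.00092.

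With the total gene signal, 0 of the 4 guide arms tested were called in either comparison with CR, against 18 (SD) and 21 (Met) of 139 miRNAs. Under this setting alone, the Z ratio was scaled by the spread over these 139 miRNAs instead of all 696. Its size, and calls at the limit of 1.5, therefore cannot be compared directly with those of the other settings. The adjusted p of miR-92a-3p was then 0.00067 and 0.0029 by limma. miR-93-5p turned to 0.54 and miR-25-3p to 0.47 between CR and SD, to 0.66 and 0.52 between CR and Met, and to -0.23 and -0.055 between Met and SD, where miR-20a-5p turned to -0.089. Quantile normalization gave 0.46 and 0.11 between CR and SD and 0.38 and 0.076 between CR and Met for miR-93-5p and miR-25-3p, and 0.037 for miR-106b-5p between Met and SD. A slide block in the fit gave 0 called guide arms between CR and SD, and 17 of all miRNAs. miR-93-5p was -0.064 between Met and SD with that block and on 1 slide alone. On 1 slide, 0 guide arms were called between CR and Met, and 12 of all miRNAs. A filter for detection on all arrays left 1 of 4 guide arms called in each comparison with CR, since it removes miR-19b-3p, and 29 and 35 of 139 miRNAs. An adjusted p of 0.05 alone called 4 between CR and SD, and the pairwise z-test called 1 between Met and SD, and 13 of 178 miRNAs against 2 by limma.

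Without CR mice 2 and 3, chosen after the data were seen, 1 guide arm was called between CR and Met, and 18 of 178 miRNAs (22 between CR and SD). miR-93-5p turned to 0.096 and miR-25-3p to 0.21 between CR and SD, and miR-93-5p to 0.022, miR-25-3p to 0.12 and miR-17-5p to 0.013 between CR and Met. The difference of miR-93-5p minus miR-25-3p turned to -0.066 against SD and -0.022 against Met. The median signal without background subtraction gave 2 pairs past the limit between Met and SD, in place of 1, and 3 between CR and Met, in place of 2.

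Leaving out each mouse in turn gave 1 to 2 called guide arms between CR and SD, 2 in every case between CR and Met and 0 in every case between Met and SD. Calls among all 178 miRNAs ran from 26 to 36, from 29 to 42 and from 1 to 9 in the same order. For pairs, leaving out each mouse gave 3 in every case between CR and SD, 2 to 3 between CR and Met and 0 to 2 between Met and SD. In that last comparison, leaving out Met mouse 1 or 2 or SD mouse 2, 3, 4 or 5 gave 0. Z ratios that changed direction ran from -0.22 to 0.065 for miR-93-5p and from -0.27 to 0.010 for miR-25-3p between CR and SD. Between Met and SD they ran from -0.45 to 0.071 for miR-106b-5p, from -0.21 to 0.45 for miR-93-5p and from -0.021 to 0.54 for miR-25-3p. The difference of miR-93-5p minus miR-25-3p between CR and SD ran from -0.0036 to 0.086. The cause of these changes was not tested.

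Mice of the 3 groups share replicate numbers. Same-numbered mice deviated from their group means with correlations from -0.562 to 0.714, with no common sign. The labels do not say whether the numbers pair mice, and these correlations cannot decide it. With the replicate block, 0, 2 and 2 guide arms were called between Met and SD, CR and SD, and CR and Met, as without it, and 2, 32 and 37 of all miRNAs. The block changed no call of a single member. Members near background, such as miR-17-5p, have z-scores that cannot fall further, which limits what the arrays can show for them.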
